A study of Mus musculus with 24 samples.

Results

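The genes of the autophagy machinery were followed in 3T3-L1 cells, a mouse pre-adipocyte line that turns into fat-storing cells after hormonal induction. The set holds 30 of the 9262 loci listed for the 24 libraries. It was chosen by function: 18 loci came from 26 genes named for their part in autophagy, and 12 more from every symbol that begins with Atg and a digit. The other 8 named genes (Ambra1, Becn1, Epg5, Map1lc3b, Pik3c3, Rb1cc1, Tax1bp1 and Wdfy3) were not analysed here. The rule uses no expression value, and all 30 loci passed the filter on low values.

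Cells were transfected with an siRNA against 14-3-3ζ (si14-3-3ζ) or with a control siRNA (siCon). RNA was taken before induction (0 h) and after 24 and 48 h in a mix of 172 nM insulin, 500 µM IBMX, which raises cyclic AMP, and 500 nM dexamethasone, a glucocorticoid. The 6 groups were si14-3-3ζ and siCon cells at 0, 24 and 48 h, with 4 libraries each. Wells received 90000 cells, and transfection preceded induction by 24 h, so even the cells of 0 h had been exposed to siRNA. The model is 1 cell line with a transient knockdown. The study describes its experiments in general as independent, but the sample labels do not tie each library of a group to a culture of its own, so part of the spread behind the p-values may be technical.

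Autophagy encloses cytoplasm, organelles or protein aggregates in a membrane that closes into an autophagosome and fuses with the lysosome. The ULK kinase complex starts the process, a class III phosphatidylinositol 3-kinase (PI3K) complex marks the growing membrane with PI3P, and a pair of ubiquitin-like conjugation systems attach LC3 and GABARAP proteins to that membrane, where cargo receptors bind them. In fat cells autophagy is known for its part in clearing cytoplasm and mitochondria during differentiation. RNA levels do not measure how much autophagy takes place.

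Levels are in FPKM (fragment counts divided by transcript length and by the mapped fragments of the library), so levels can be set side by side between genes. Differences were tested with limma on log2(FPKM + 1) over all 9251 tested loci, with 1 spread shared by the 6 groups. A locus was called when its Benjamini-Hochberg adjusted p was under 0.05, and on this scale a log2 fold change comes out too small for genes of low FPKM. Without read counts the depth behind a single value is unknown. The target of the siRNA, Ywhaz, lay between 21.9 and 55.5 FPKM in the 12 si14-3-3ζ libraries and between 154 and 271 FPKM in the 12 siCon libraries. Of the pre-adipocyte markers 7 of 8 were listed and of the adipocyte markers 8 of 8, with no endothelial or epithelial marker and 1 of 7 macrophage markers (Lyz2, at most 12.4 FPKM). The listed loci are a selection, since in every one the highest group mean was at least 1.18 times the lowest. Among the autophagy genes this ratio ran from 1.31 for Ulk1 to 5.86 for Optn, with a median of 1.75 against 1.89 over all listed loci.

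Knockdown of 14-3-3ζ left more autophagy genes higher as induction went on. At 48 h, 15 of the 30 were higher and 0 lower in si14-3-3ζ cells than in siCon cells. At 24 h, 7 were higher and 4 lower, and before induction 1 was higher and 3 were lower. Over all tested loci, 8.10% were called higher and 9.16% lower before induction. The shares were 14.5% and 14.0% at 24 h. They grew to 23.3% and 22.8% at 48 h. The shares of the autophagy genes called were 3.33% (higher) and 10% (lower) before induction. They were 23.3% and 13.3% at 24 h, then 50% and 0% at 48 h. Their median log2 change was 0.09, 0.16 and 0.24 at the 3 times, beside medians over all loci of 0.01, 0.02 and 0.01. At an unadjusted p under 0.05, limma put 8 autophagy genes higher and 4 lower at 0 h, a balance opposite to that of the adjusted calls. By the same measure 12 were higher and 5 lower at 24 h, and 17 higher and 0 lower at 48 h. No share of all loci at the unadjusted threshold is at hand, so these unadjusted counts cannot be read against a background. The count of adjusted calls at 24 h was the least stable. It fell to 6 without replicate 3 of si14-3-3ζ cells at 24 h and to 7 when only the groups compared were fitted. With the replicate number as a block it was 16, the added loci being Ctdnep1/Gabarap (0.0148), Optn (0.0182), Pik3r4 (0.0187) and Atg3 (0.0385), which were higher, and Gabarapl1 (0.0317), which was lower (limma adjusted p in parentheses). The block also gave more calls over all 9251 tested loci, with 1854 higher and 1751 lower, against 1342 and 1291 without it.

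**Figure D1:**
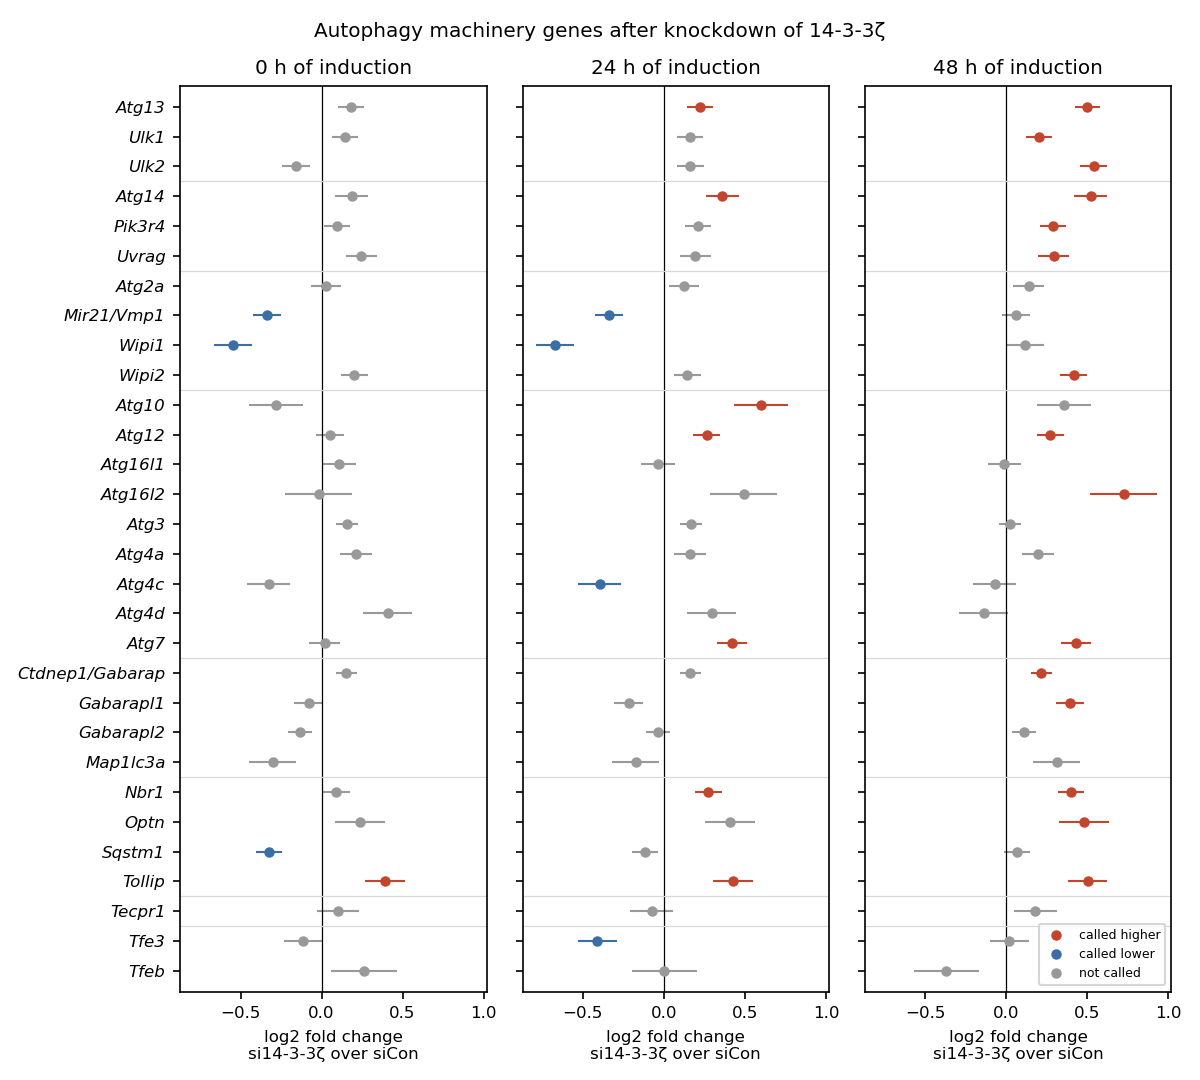
Log2 fold change of each autophagy gene in si14-3-3ζ over siCon cells at 0, 24 and 48 h, with its standard error; genes are grouped by role and coloured by call. At 48 h, 15 points are called higher and none lower, whereas Wipi1 and the locus Mir21/Vmp1 are called lower at 0 and 24 h.

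The summed level of the 30 loci came apart at 48 h. At 0 h it was 1963 ± 44.7 FPKM in si14-3-3ζ cells, against 2054 ± 61.0 in siCon cells (SD, n = 4 each). At 24 h it was 1217 ± 12.1 FPKM in si14-3-3ζ cells, against 1238 ± 20.0 in siCon cells. At 48 h it was 1306 ± 28.1 FPKM in si14-3-3ζ cells, with libraries between 1280 and 1339, and 1133 ± 45.0 in siCon cells, with libraries between 1090 and 1183, so that the libraries no longer overlapped. The adipocyte markers were lower: their sum lay between 252 and 592 FPKM in si14-3-3ζ libraries and between 1566 and 4953 FPKM in siCon libraries at 48 h. This marker sum was already apart at 0 h, at 613 to 739 FPKM in si14-3-3ζ and 1534 to 1837 in siCon libraries. At 24 h it was 197 to 315 FPKM in si14-3-3ζ and 458 to 813 in siCon libraries. The summed pre-adipocyte markers were also lower at 48 h, at 1862 to 2332 FPKM in si14-3-3ζ libraries and 2824 to 4359 FPKM in siCon libraries, but the means of Pdgfra (70.4 FPKM in si14-3-3ζ cells, against 51.4 in siCon cells) and Pdgfrb (26.6 FPKM in si14-3-3ζ cells, against 19.5 in siCon cells) went the other way. Their sum too was apart earlier, at 2240 to 3121 FPKM in si14-3-3ζ and 3980 to 4903 in siCon libraries at 0 h. At 24 h it was 1811 to 2412 FPKM in si14-3-3ζ and 3558 to 3710 in siCon libraries. The part of cell state in the autophagy results was not tested, and in bulk RNA fewer cells of a type and less RNA per cell cannot be told apart.

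Each of the 3 listed genes of the initiation complex, Ulk1, Ulk2 and Atg13, was higher in si14-3-3ζ cells at 48 h. The same call was made for 23.3% of all tested loci. Rb1cc1, a further gene of this complex, was not analysed here. Ulk1 and Ulk2 encode the kinases that start autophagy, and Atg13 encodes the subunit that binds them. Ulk2 (chr11:61589151-61668575 on the minus strand of NCBIM37, protein-coding) had 13.7, 12.4, 13.2 and 13.6 FPKM in si14-3-3ζ libraries at 48 h, against 8.71, 9.09, 7.35 and 10.2 FPKM in siCon libraries. These did not overlap, and the log2 difference was 0.54 ± 0.08 (SE, limma adjusted p = 2.72e-05). At 0 h Ulk2 had 11.7, 12.2, 10.6 and 12.6 FPKM in si14-3-3ζ libraries and 12.5, 13.2, 13.7 and 13.5 in siCon libraries, which overlapped and passed no test (adjusted p = 0.213). Atg13 had 20.9, 19.4, 18.5 and 19.2 FPKM in si14-3-3ζ libraries at 48 h and 12.7, 15.4, 11.4 and 14.8 in siCon libraries, again without overlap (0.50 ± 0.08, adjusted p = 3.10e-05). At 24 h Atg13 averaged 16.9 ± 0.443 FPKM in si14-3-3ζ cells, against 14.3 ± 0.540 in siCon cells (SD, n = 4), a limma difference (adjusted p = 0.0379) that was lost without any library of the 2 groups other than replicate 2 of siCon cells. Ulk1 was higher by 1.16-fold at 48 h, at 24.6 ± 1.31 FPKM in si14-3-3ζ cells, against 21.2 ± 0.721 in siCon cells. Its limma call (adjusted p = 0.0432) was lost without any library of those groups other than replicate 3 of si14-3-3ζ cells, and also under either rescaling of the libraries.

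The bases before the start of Ulk2 are shown because it had the smallest p for a difference in its response to induction, described further on. They are 250 bases of RefSeq sequence in build GRCm38.p6, chr11:61855093-61855342 on the minus strand, in which the capitals mark a match to TGACNNNGC, the core of the antioxidant response element to which NRF2 binds.
Ulk2: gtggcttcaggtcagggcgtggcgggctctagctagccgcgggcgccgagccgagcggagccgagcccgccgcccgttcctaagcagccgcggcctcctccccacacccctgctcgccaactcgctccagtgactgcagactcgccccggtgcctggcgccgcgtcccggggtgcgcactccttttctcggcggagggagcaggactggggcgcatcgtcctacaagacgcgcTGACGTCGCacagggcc
The match begins 17 bases before the start. The same core, searched on both strands from 250 bases before to 50 after the start, was found for 3 of the 27 autophagy genes with a promoter in the RefSeq table (Ulk2, Vmp1 and Atg13) and for 14.0% of all genes in it.

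Each of the 3 listed genes of the class III PI3K complexes was higher in si14-3-3ζ cells at 48 h, beside 23.3% of all tested loci. Becn1 and Pik3c3, which also belong to these complexes, were not analysed here. Atg14, which directs the kinase to autophagosome formation, had 8.41, 6.89, 6.78 and 7.31 FPKM in si14-3-3ζ libraries and 4.93, 5.19, 3.88 and 5.32 in siCon libraries at 48 h, a difference of 0.52 ± 0.10 (limma adjusted p = 2.67e-04). It was already higher at 24 h, with 5.44, 4.44, 5.80 and 5.27 FPKM in si14-3-3ζ libraries against 3.90, 3.48, 4.40 and 3.63 in siCon libraries (0.36 ± 0.10, adjusted p = 0.0104). At both times no si14-3-3ζ library fell into the range of siCon cells. Pik3r4, the regulatory subunit that anchors the kinase, averaged 8.32 ± 0.366 FPKM in si14-3-3ζ cells, against 6.66 ± 0.688 in siCon cells at 48 h (adjusted p = 0.00573). Uvrag, the subunit of a second complex that acts on endosomes and late autophagosomes, averaged 13.2 ± 1.69 FPKM in si14-3-3ζ cells, against 10.6 ± 0.561 in siCon cells (adjusted p = 0.0145), which was lost without replicate 2 or replicate 4 of si14-3-3ζ cells at 48 h (adjusted p up to 0.0591 by limma). Neither Pik3r4 nor Uvrag was called at 48 h when only the groups compared were fitted.

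Genes that supply membrane or read PI3P split into lower and higher ones. Wipi1 (chr11:109434645-109473281 on the minus strand), whose protein binds PI3P on the forming membrane, was lower in si14-3-3ζ cells at 0 and 24 h and no longer at 48 h. It had 37.0, 46.3, 36.7 and 46.1 FPKM in si14-3-3ζ libraries at 0 h, against 53.6, 71.9, 55.7 and 63.4 in siCon libraries (-0.55 ± 0.12, limma adjusted p = 0.00248). At 24 h it had 30.7, 34.3, 30.9 and 31.2 FPKM in si14-3-3ζ libraries and 48.1, 53.0, 50.9 and 52.5 in siCon libraries (-0.67 ± 0.12, adjusted p = 1.88e-04). The groups did not overlap at either time. At 48 h the values were 43.3, 39.6, 42.6 and 37.9 FPKM in si14-3-3ζ libraries and 32.0, 48.6, 31.6 and 40.7 in siCon libraries, and the range of the siCon libraries enclosed that of the others. Wipi2, a relative that recruits ATG16L1 to PI3P, took another course and had 38.1, 38.3, 40.2 and 38.2 FPKM in si14-3-3ζ libraries at 48 h, against 26.3, 30.6, 27.8 and 30.4 in siCon libraries (0.42 ± 0.08, limma adjusted p = 3.73e-04). Wipi2 was not called at 0 or 24 h. Atg2a, a lipid transfer protein, was not called at any time, with log2 differences between 0.03 and 0.14.

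The locus Mir21/Vmp1 (Vmp1 at chr11:86397367-86497338 on the minus strand) was, like Wipi1, lower in si14-3-3ζ cells at 0 and 24 h and no longer at 48 h. The changes from 0 to 48 h differed: Wipi1 fell in siCon cells, whereas Mir21/Vmp1 rose in si14-3-3ζ cells. Vmp1 encodes a membrane protein of the endoplasmic reticulum needed for autophagosome formation, and the gene of the microRNA miR-21 lies at its end on the same strand, so the fragments of both were summed and cannot be told apart. The mature microRNA is shown because its gene shares this locus, from RefSeq in build GRCm38.p6 (chr11:86584120-86584141, minus strand), with its seed, bases 2 to 8, in capitals.
mmu-miR-21a-5p: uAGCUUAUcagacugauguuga
The locus had 160.1, 118, 137 and 139 FPKM in si14-3-3ζ libraries at 0 h and 170.1, 159.8, 181 and 188 in siCon libraries (-0.34 ± 0.09, limma adjusted p = 0.0103). At 24 h it had 151, 153, 126 and 150.1 FPKM in si14-3-3ζ libraries and 195, 164, 188 and 186 in siCon libraries (-0.34 ± 0.09, adjusted p = 0.00592). The groups overlapped by 1 library on each side at 0 h and did not overlap at 24 h. At 48 h they overlapped again, averaging 180.5 ± 10.6 FPKM in si14-3-3ζ cells, against 173 ± 10.6 in siCon cells. Both calls were lost under quantile normalization, with adjusted p = 0.0803 at 0 h and 0.137 at 24 h in limma.

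**Figure D2:**
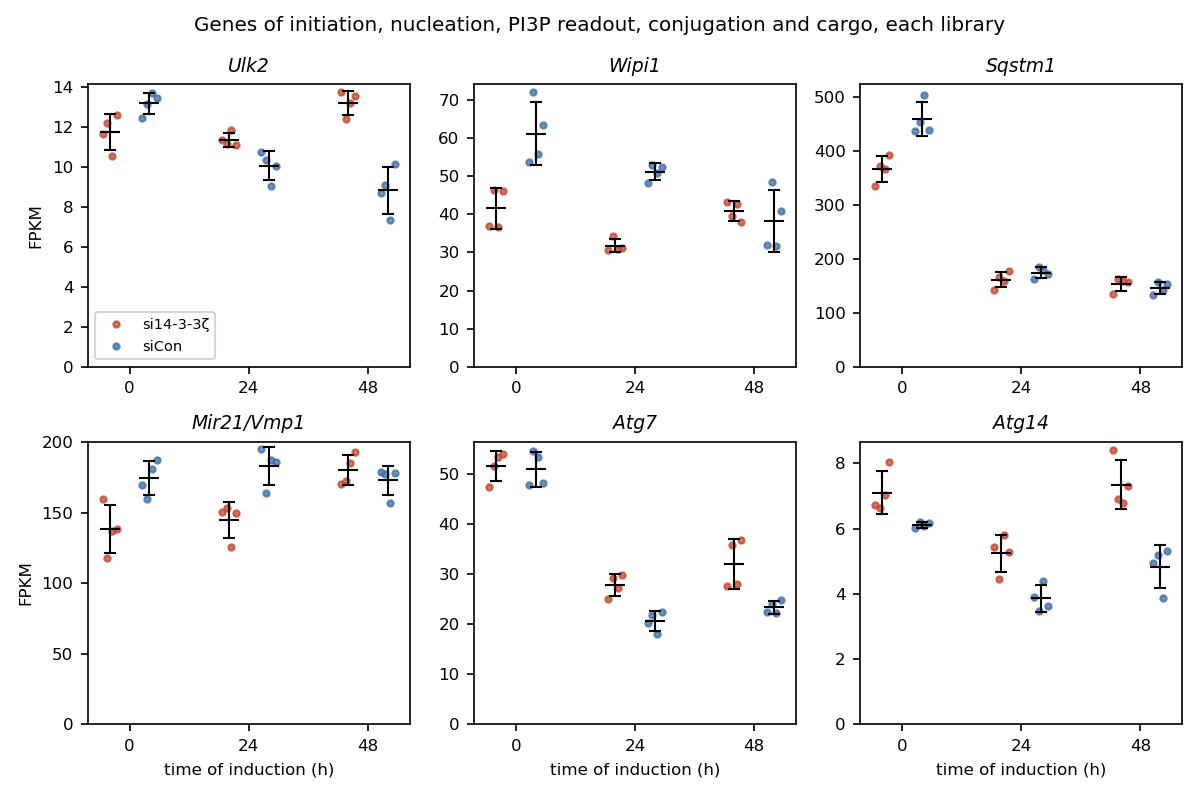
FPKM of 6 autophagy genes in each of the 24 libraries by time of induction; points are libraries, si14-3-3ζ left of siCon, and bars give mean ± SD (n = 4). Wipi1 and Mir21/Vmp1 are lower in si14-3-3ζ cells at 0 and 24 h and level with siCon cells at 48 h, whereas Ulk2, Atg7 and Atg14 stand apart upward at 48 h.

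The conjugation genes were the largest group, with 9 loci, of which 0 were called before induction. At 24 h 3 of them were higher and 1 was lower, and at 48 h 3 were higher and 0 lower. As shares these were 33.3% and 11.1% at 24 h, beside 14.5% and 14.0% of all tested loci. At 48 h they were 33.3% and 0%, beside 23.3% and 22.8%. At an unadjusted p under 0.05, limma put 3 higher and 1 lower before induction. By that measure 5 were higher and 1 lower after 24 h, with 4 higher and 0 lower after 48 h. These unadjusted counts have no share of all loci beside them. Atg7 (chr6:114593149-114810431 on the plus strand), the E1-like enzyme of both conjugation systems, had 25.1, 29.3, 27.1 and 29.9 FPKM in si14-3-3ζ libraries at 24 h and 20.2, 21.8, 18.0 and 22.4 in siCon libraries (0.42 ± 0.09, adjusted p = 0.0021). At 48 h it had 27.5, 35.8, 28.0 and 36.8 FPKM in si14-3-3ζ libraries and 22.3, 23.9, 22.3 and 24.9 in siCon libraries (0.43 ± 0.09, limma adjusted p = 8.70e-04). The groups did not overlap at either time, whereas at 0 h they averaged 51.5 ± 2.99 FPKM in si14-3-3ζ cells, against 50.9 ± 3.50 in siCon cells. Atg10, the E2-like enzyme that joins ATG12 to ATG5, had 6.01, 5.87, 6.91 and 7.04 FPKM in si14-3-3ζ libraries at 24 h and 4.90, 4.62, 2.88 and 3.53 in siCon libraries (0.60 ± 0.17, limma adjusted p = 0.00934). It is a gene of low level, and its libraries at 0 h ran from 2.34 to 5.56 FPKM in si14-3-3ζ cells and from 3.92 to 5.57 in siCon cells, so they overlapped.

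Atg12, the ubiquitin-like protein that ATG10 conjugates, was higher in si14-3-3ζ cells at 24 h (28.7 ± 2.19 FPKM, against 23.8 ± 2.73 in siCon cells, limma adjusted p = 0.0246) and at 48 h (33.9 ± 1.17 FPKM, against 27.9 ± 1.33 in siCon cells, adjusted p = 0.0126). The call at 24 h was lost without replicate 1 or 3 of si14-3-3ζ cells or replicate 2 or 4 of siCon cells, with adjusted p up to 0.0852 in limma. Atg16l2, a relative of the scaffold gene Atg16l1, averaged 4.66 ± 1.20 FPKM in si14-3-3ζ cells, against 2.41 ± 0.613 in siCon cells at 48 h, 1.94-fold higher (adjusted p = 0.0067). Atg16l1 itself was not called at any time, with means of 20.2 FPKM in si14-3-3ζ cells, against 20.3 in siCon cells at 48 h. Among the 3 listed genes for ATG4 proteases, which cut LC3 precursors, Atg4a and Atg4d were not called at any time. Atg4c averaged 4.18 ± 0.684 FPKM in si14-3-3ζ cells, against 5.82 ± 0.970 in siCon cells at 24 h, a lower level (limma adjusted p = 0.0299) whose call was lost without replicate 3 or 4 of si14-3-3ζ cells or replicate 1, 3 or 4 of siCon cells. Exons of Atg4d overlap those of Kri1 on the other strand, and the library kit does not mark strand.

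Atg3, the E2-like enzyme that joins LC3 to lipid, was not called after knockdown without a replicate block. With the replicate number as a block it was called higher at 24 h (limma adjusted p = 0.0385). At 48 h it averaged 33.3 ± 2.41 FPKM in si14-3-3ζ cells, against 32.7 ± 1.98 in siCon cells. Its promoter is shown because it was the only one of the 27 to hold TCACGTGA, the core of the CLEAR element to which TFEB and TFE3 bind. The 250 bases before the start come from RefSeq, build GRCm38.p6, chr16:45158579-45158828 on the plus strand, and capitals mark each CACGTG.
Atg3: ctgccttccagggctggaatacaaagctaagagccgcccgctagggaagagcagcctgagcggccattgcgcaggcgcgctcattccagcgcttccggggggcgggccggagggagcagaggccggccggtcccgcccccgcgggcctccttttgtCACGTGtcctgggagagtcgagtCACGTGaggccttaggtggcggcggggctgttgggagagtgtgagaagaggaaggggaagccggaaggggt
The 2 matches begin 94 and 71 bases before the start, and the nearer one is the centre of TCACGTGA. Of the 27 genes, 3 (Atg3, Atg7 and Atg14) hold CACGTG between 250 bases before and 50 after the start, or 11.1%, beside 8.09% of all genes in the table. TCACGTGA was present for 1.12% of all genes. TGTTTAC, a site of FoxO factors, was found for 0 of 27 and 4.05% of all genes, and TGACGTCA, the cyclic AMP response element, for 1 of 27 (Atg16l2) and 2.03% of all genes.

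The 4 LC3 and GABARAP loci held between 38.9% and 49.4% of the summed FPKM of the set in a library. Their proteins are the tags on the autophagosome membrane. Map1lc3b, a further gene of this family, was not analysed here. The locus Ctdnep1/Gabarap (chr11:69804645-69808453 for Gabarap, plus strand) was the highest of the 30 in every group, but it also carries Ctdnep1, a nuclear envelope phosphatase gene just before it, and the 2 genes cannot be told apart. This locus had 329, 335, 294 and 312 FPKM in si14-3-3ζ libraries at 48 h and 268, 280.1, 268 and 276 in siCon libraries. Its limma difference was 0.21 ± 0.06 (adjusted p = 0.0095) and grew to 0.41 under quantile normalization. At 0 h it had 602, 604, 634 and 633 FPKM in si14-3-3ζ libraries and 549, 583, 523 and 571 in siCon libraries, which did not overlap, yet the limma adjusted p was 0.106. At 24 h it had 332, 325, 329 and 316 FPKM in si14-3-3ζ libraries and 281, 304, 261 and 321 in siCon libraries (adjusted p = 0.0625). With the replicate number as a block it was called higher at 24 h (limma adjusted p = 0.0148). Under quantile normalization the locus was called higher at all 3 times.

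Gabarapl1 (chr6:129483218-129492349, plus strand) had 111, 109, 96.8 and 105 FPKM in si14-3-3ζ libraries at 48 h, against 85.4, 79.5, 74.5 and 80.9 in siCon libraries. All 4 si14-3-3ζ libraries were above all 4 siCon libraries, and the limma difference was 0.39 ± 0.09 (adjusted p = 0.00102). At 24 h the values were 103, 89.3, 97.2 and 89.9 FPKM in si14-3-3ζ libraries and 128, 106, 108 and 101 in siCon libraries (-0.22 ± 0.09, adjusted p = 0.0667). With the replicate number as a block Gabarapl1 was called lower at 24 h (limma adjusted p = 0.0317). At 0 h Gabarapl1 had 193, 203, 173 and 200.4 FPKM in si14-3-3ζ libraries and 181, 231, 183 and 221 in siCon libraries, and the groups overlapped. Exons of a non-coding gene, 1700101I11Rik, overlap Gabarapl1 on the other strand.

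Map1lc3a, which encodes LC3A, had 56.7, 55.6, 59.9 and 55.9 FPKM in si14-3-3ζ libraries at 48 h and 36.2, 63.6, 37.0 and 51.5 in siCon libraries. Replicates 2 and 4 of siCon cells stood well above replicates 1 and 3, and the difference of 0.31 ± 0.15 was not called (limma adjusted p = 0.088). At 0 h Map1lc3a had 87.6, 93.3, 72.9 and 99.7 FPKM in si14-3-3ζ libraries and 94.2, 126, 93.6 and 125 in siCon libraries, with replicates 2 and 4 of siCon cells again the highest. At 24 h it had 55.8, 52.7, 59.5 and 47.1 FPKM in si14-3-3ζ libraries and 60.3, 66.4, 50.6 and 66.6 in siCon libraries, and neither time passed the test. Gabarapl2 had 63.3, 62.8, 66.5 and 67.9 FPKM in si14-3-3ζ libraries at 0 h and 72.2, 76.5, 68.5 and 68.6 in siCon libraries. At 48 h it had 50.5, 55.3, 57.5 and 50.9 FPKM in si14-3-3ζ libraries and 47.7, 50.9, 51.1 and 48.5 in siCon libraries, with differences of -0.13 and 0.11 that were not called. At 24 h its libraries overlapped, with 50.3, 60.0, 48.9 and 48.1 FPKM in si14-3-3ζ and 58.4, 49.3, 53.5 and 50.8 FPKM in siCon cells. Summed over the 4 loci, the family stood at 533 ± 21.2 FPKM in si14-3-3ζ cells, against 450 ± 19.7 in siCon cells, at 48 h, where the libraries did not overlap. Before induction the sums were 964 ± 26.0 FPKM in si14-3-3ζ cells, against 941 ± 70.5 in siCon cells, and overlapped.

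**Figure D3:**
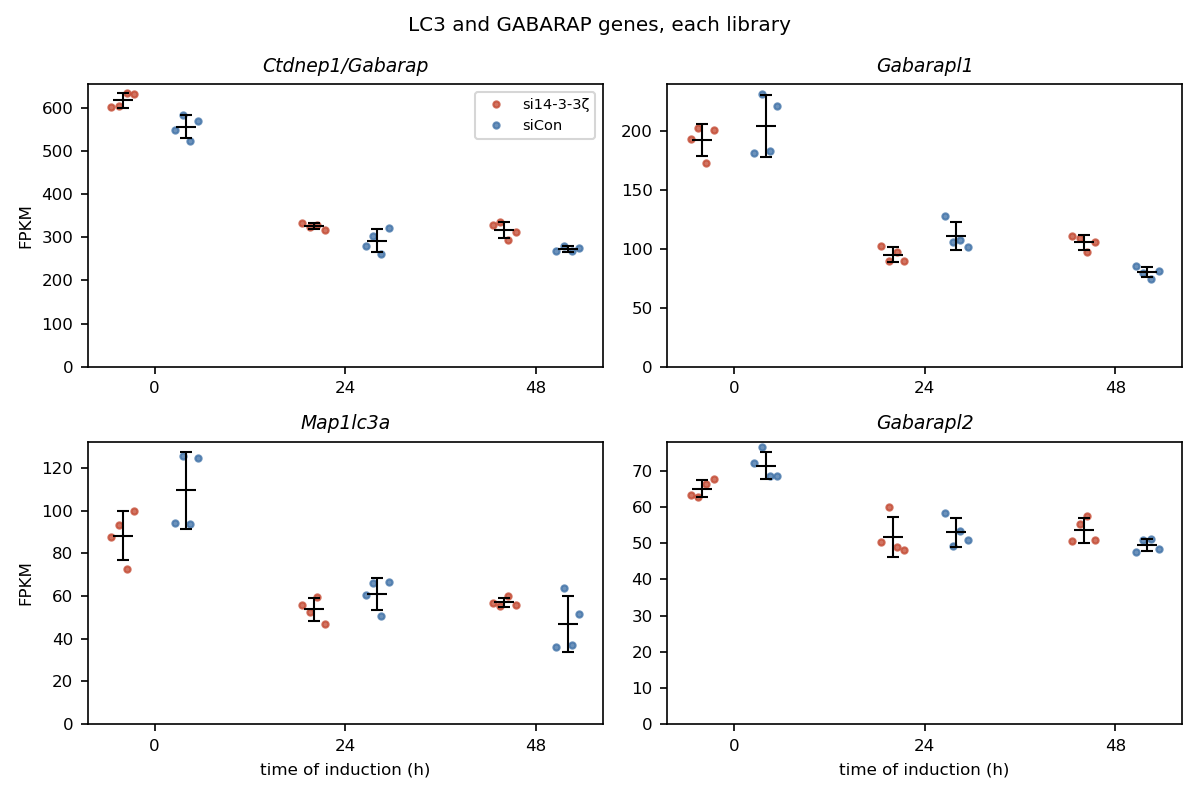
FPKM of the 4 LC3 and GABARAP loci in each of the 24 libraries by time of induction; points are libraries, si14-3-3ζ left of siCon, and bars give mean ± SD (n = 4). Every locus is lower after induction in both kinds of cells, and at 48 h Ctdnep1/Gabarap and Gabarapl1 are higher in all si14-3-3ζ than in all siCon libraries.

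Of the 4 loci for cargo receptors and adaptors, 3 were higher in si14-3-3ζ cells at 48 h, beside 23.3% of all tested loci. Tollip, an adaptor that binds ubiquitin, was the only autophagy gene called higher at all 3 times. It had 41.2, 43.0, 40.9 and 34.9 FPKM in si14-3-3ζ libraries at 0 h and 37.0, 26.2, 32.5 and 26.3 in siCon libraries, which overlapped by 1 library on each side (0.39 ± 0.12, limma adjusted p = 0.0291). That call was lost without replicate 1, 2 or 3 of si14-3-3ζ cells, without replicate 2 or 4 of siCon cells, and when only the 2 groups were fitted. At 24 h Tollip had 30.5, 28.9, 36.3 and 24.4 FPKM in si14-3-3ζ libraries and 25.5, 21.9, 22.1 and 18.6 in siCon libraries, again with overlap (0.43 ± 0.12, adjusted p = 0.0115, or 0.0582 in limma without replicate 3 of si14-3-3ζ cells). At 48 h it had 31.8, 30.5, 27.5 and 27.1 FPKM in si14-3-3ζ libraries and 23.0, 18.2, 20.6 and 19.7 in siCon libraries, now separate (0.50 ± 0.12, limma adjusted p = 0.00193).

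Nbr1, a receptor for ubiquitinated cargo, had 36.3, 46.9, 39.2 and 44.4 FPKM in si14-3-3ζ libraries at 48 h and 26.6, 32.0, 33.6 and 33.3 in siCon libraries (0.40 ± 0.08, limma adjusted p = 4.86e-04). At 24 h it averaged 35.8 ± 2.43 FPKM in si14-3-3ζ cells, against 29.4 ± 1.07 in siCon cells (adjusted p = 0.0159, lost in limma without replicate 3 of si14-3-3ζ cells at 0.058). Optn, the receptor optineurin, averaged 4.42 ± 0.809 FPKM in si14-3-3ζ cells, against 2.92 ± 0.862 in siCon cells at 48 h (limma adjusted p = 0.0147), and the call was lost without replicate 3 of si14-3-3ζ cells or replicate 1 or 3 of siCon cells, with adjusted p up to 0.0638. Sqstm1 (chr11:50012868-50024329, minus strand), which encodes the receptor p62, went the other way before induction. It had 334, 371, 366 and 392 FPKM in si14-3-3ζ libraries at 0 h, below each of 437, 454, 504 and 439 in siCon libraries (-0.33 ± 0.08, limma adjusted p = 0.00704). At 48 h its libraries overlapped, with 135, 162, 158 and 158 FPKM in si14-3-3ζ libraries and 132, 157, 142 and 154 in siCon libraries (adjusted p = 0.507). Exons of Optn and of Sqstm1 each overlap a gene on the other strand.

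The remaining members are Tecpr1, which acts in fusion with the lysosome, and the transcription factors Tfeb and Tfe3, which drive lysosome and autophagy genes from the nucleus. Tecpr1 was not called after knockdown at any time, with 8.07 ± 1.55 FPKM in si14-3-3ζ cells, against 7.00 ± 1.32 in siCon cells at 48 h. Tfe3 was lower in si14-3-3ζ cells at 24 h, at 25.2 ± 1.75 FPKM against 34.3 ± 6.98 FPKM in siCon cells (limma adjusted p = 0.0132). That call was lost without replicate 3 of siCon cells (limma adjusted p = 0.0662) and when only the 2 groups were fitted. At 48 h Tfe3 averaged 25.7 ± 3.62 FPKM in si14-3-3ζ cells, against 25.3 ± 2.66 in siCon cells. Tfeb had the lowest mean of the set in every group other than siCon cells at 48 h, at 2.09 ± 0.570 FPKM in si14-3-3ζ cells, against 3.00 ± 0.780 in siCon cells at 48 h, and was not called at any time.

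After induction more of the set was called lower than higher in both kinds of cells. No uninduced libraries were taken at 24 or 48 h, so induction and time in culture or since transfection cannot be told apart. Against 0 h, 20 loci were lower and 1 was higher after 24 h in si14-3-3ζ cells, with 15 lower and 5 higher after 48 h. In siCon cells 19 loci were lower and 2 higher after 24 h, with the same counts after 48 h. Over all tested loci, 31.9% were lower and 28.3% higher after 24 h in si14-3-3ζ cells, becoming 29.7% lower and 26.5% higher after 48 h. The siCon shares were 33.4% lower and 30.8% higher after 24 h, then 35.7% lower and 33.9% higher after 48 h. The median log2 change of the set after 48 h was -0.21 in si14-3-3ζ cells, against -0.44 in siCon cells, beside medians over all loci of 0.00 and -0.02. The 2 times of one kind of cell share the libraries of 0 h.

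**Figure D4:**
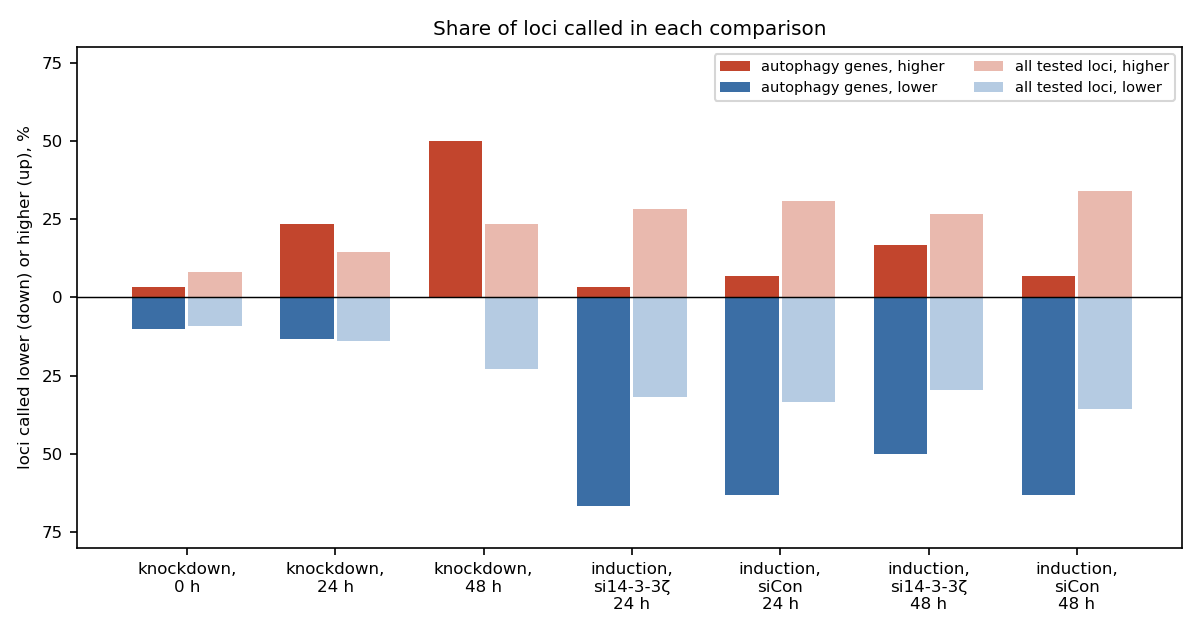
Share of loci called higher (upward) or lower (downward) in each comparison, for the 30 autophagy genes (dark bars) and all 9251 tested loci (pale bars). The autophagy genes called lower after induction make up 50% to 66.7% of the set, beside 29.7% to 35.7% of all loci. Those called higher by knockdown at 48 h make up 50% beside 23.3%.

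In both kinds of cells the 4 members with the smallest adjusted p at 48 h were Sqstm1, Optn, Ctdnep1/Gabarap and Gabarapl1, each of them lower. Sqstm1 fell by 1.25 on the log2 scale in si14-3-3ζ cells, for which the values of 48 and 0 h stand above, and by 1.64 in siCon cells (limma adjusted p = 1.58e-11 and 6.24e-14). Optn had 4.02, 4.22, 5.61 and 3.82 FPKM in si14-3-3ζ libraries at 48 h and 14.3, 19.9, 17.1 and 17.3 at 0 h, a change of -1.74 ± 0.15 (adjusted p = 3.60e-09 by limma). In siCon cells Optn had 2.31, 4.16, 2.35 and 2.87 FPKM at 48 h and 11.4, 14.7, 14.4 and 17.3 at 0 h, a change of -1.99 ± 0.15 (adjusted p = 1.63e-10 by limma). The induced libraries lay below the uninduced ones in both. Ctdnep1/Gabarap changed by -0.96 in si14-3-3ζ cells, against -1.02 in siCon cells, and Gabarapl1 by -0.86 in si14-3-3ζ cells, against -1.33 in siCon cells (limma adjusted p at most 3.24e-08). Of the 4 listed LC3 and GABARAP loci Gabarapl2 changed least, by -0.28 in si14-3-3ζ cells, against -0.52 in siCon cells. It was still called in both. Tecpr1 and Uvrag were lower at both times in both kinds of cells, and after 48 h the log2 change of Tecpr1 was -0.79 with si14-3-3ζ and -0.87 with siCon. That of Uvrag was -0.55 with si14-3-3ζ and -0.59 with siCon.

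Few members rose. Atg16l1 was higher at 48 h in si14-3-3ζ cells, at 20.2 ± 2.82 FPKM against 15.1 ± 1.11 at 0 h, and in siCon cells, at 20.3 ± 2.75 against 14.0 ± 1.14 (limma adjusted p = 0.00326 and 1.74e-04). Atg4d rose in siCon cells, to 6.00 ± 1.15 FPKM at 48 h, against 3.30 ± 0.652 at 0 h (adjusted p = 3.05e-04 by limma). Called higher at 48 h in si14-3-3ζ cells were Atg16l1, Atg10, Atg12, Ulk1 and Mir21/Vmp1. The call of Atg10 was lost without replicate 3 of si14-3-3ζ cells at 0 h. Atg12 and Ulk1 were not called in siCon cells at 48 h (limma adjusted p = 0.0577 and 0.0589), and with the replicate number as a block both were (0.0274 and 0.0314). At 24 h the block added Tfeb (0.0455) and Wipi1 (0.0218) in siCon cells, both of them lower. In si14-3-3ζ cells it added Atg12 (0.0437), which was higher (limma adjusted p in parentheses).

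Whether the response to induction itself differed between the cells was tested as the change in si14-3-3ζ cells minus the change in siCon cells. For 24 h of induction 0 of the 30 differences were called in limma, beside 0.638% higher and 0.789% lower over all loci. Of the 30, 3 had an unadjusted p under 0.05 in limma, a count without a share of all loci beside it. Leaving out replicate 4 of si14-3-3ζ cells at 0 h or replicate 1 of siCon cells at 24 h gave 1 call, Atg10. For 48 h, 7 were called, each positive, beside 8.69% positive and 9.24% negative over all loci. The 7 make up 23.3% of the set. Atg4d was negative (-0.55) and not called (limma adjusted p = 0.0793), but became a call under quantile normalization and without replicate 3 of siCon cells at 0 h. With the replicate number as a block it was also called negative (limma adjusted p = 0.0364). Of the 30 differences 25 were above 0, as were 50.5% over all loci, with a median of 0.23 in the set. Of the 19 loci that fell in siCon cells by 48 h, 14 also fell in si14-3-3ζ cells. The matching share over all loci is not at hand, so this count cannot be read against a background.

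**Figure D5:**
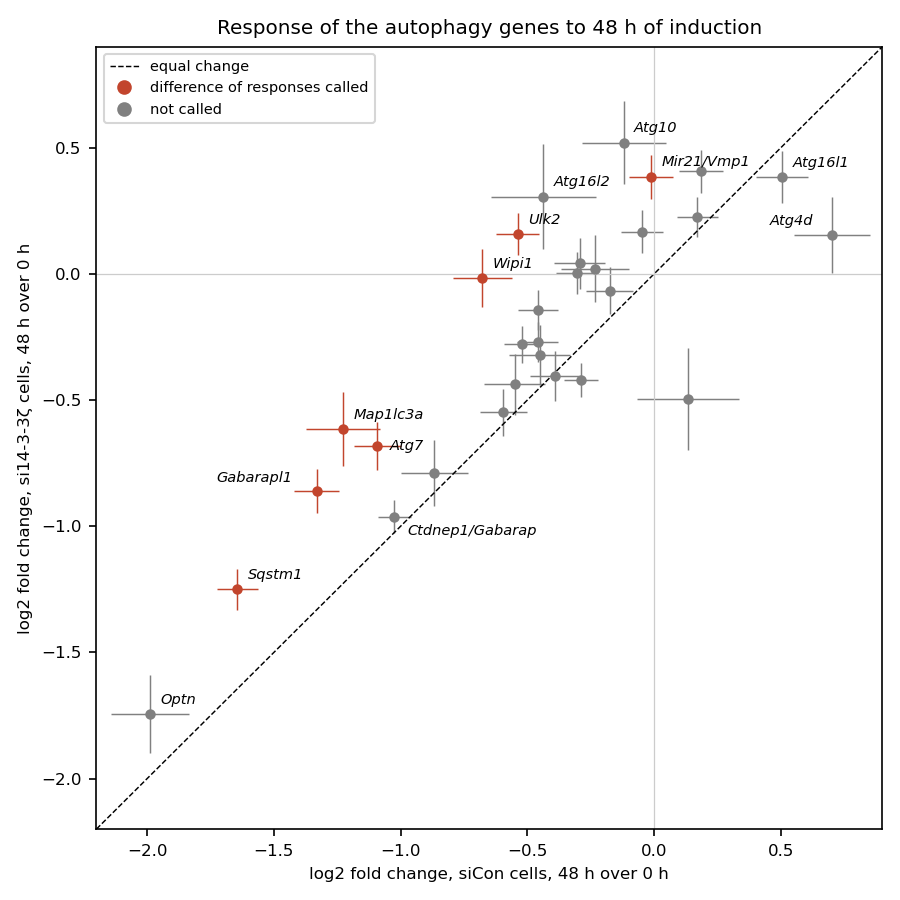
Log2 fold change of each autophagy gene from 0 to 48 h in si14-3-3ζ cells (vertical) and siCon cells (horizontal), with standard errors; the dashed line marks equal change. Coloured are the 7 loci whose difference of responses was called, all above the line, and 25 of 30 lie above it.

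The difference was clearest for Ulk2, at 0.70 ± 0.12 on the log2 scale (limma adjusted p = 4.91e-04). Ulk2 fell in siCon cells to the values of 48 h given above, against those of 0 h (-0.54, adjusted p = 7.69e-06 by limma), and was not called in si14-3-3ζ cells (0.16, adjusted p = 0.114). Wipi1 also fell by 48 h in siCon cells only, with -0.02 in si14-3-3ζ cells, against -0.68 in siCon cells and a difference of 0.66 ± 0.16 (limma adjusted p = 0.00792). Unlike Ulk2, Wipi1 was called lower in si14-3-3ζ than in siCon cells at 0 h and was not called at 48 h. For Gabarapl1 the difference was 0.47 ± 0.12 (adjusted p = 0.0114 by limma) and for Sqstm1 0.39 ± 0.11 (adjusted p = 0.019 by limma). These 4 calls held without any single library.

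The other 3 calls depended on single libraries. The locus Mir21/Vmp1, with a difference of 0.40 ± 0.12 (limma adjusted p = 0.0284), rose in si14-3-3ζ cells and passed no test in siCon cells. Atg7 differed by 0.41 ± 0.13 (limma adjusted p = 0.0363) and Map1lc3a by 0.61 ± 0.21 (limma adjusted p = 0.0442). All 3 calls were lost without replicate 2 of si14-3-3ζ cells at 0 h, without replicate 4 of si14-3-3ζ cells at 48 h or without replicate 3 of siCon cells at 48 h, each of which left 4 calls. Of the 24 fits that left out 1 library, 19 kept the call of Mir21/Vmp1, 16 that of Atg7 and 12 that of Map1lc3a, with limma adjusted p up to 0.105 for Map1lc3a. The calls of Atg7 and Map1lc3a were also lost when only the groups compared were fitted. Atg10, with 0.64 ± 0.23, and Atg13, with 0.32 ± 0.11, fell just short (limma adjusted p = 0.0605 and 0.0531).

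Of 152 other genes of the pathway, 106 were listed as loci outside the set. Before induction 20 of them were higher and 9 lower in si14-3-3ζ cells. After induction the counts were 27 higher and 14 lower at 24 h, then 40 higher and 16 lower at 48 h. As shares these were 18.9% higher and 8.49% lower before induction, beside 8.10% and 9.16% of all tested loci. They were 25.5% and 13.2% at 24 h, beside 14.5% and 14.0% of all loci, and 37.7% and 15.1% at 48 h, beside 23.3% and 22.8%, with a median log2 change of 0.13. The counts of the lists that follow are to be read against the same shares at 48 h. Among 21 genes upstream of autophagy around AMPK and TORC1, 7 were higher and 1 lower at 48 h. Flcn, which encodes folliculin, a regulator of TORC1 and of TFE3, averaged 30.0 ± 3.52 FPKM in si14-3-3ζ cells, against 13.9 ± 1.43 in siCon cells at 48 h, and 54.1 ± 0.731 FPKM in si14-3-3ζ, against 30.6 ± 2.14 in siCon cells, at 0 h (limma adjusted p = 9.83e-07 and 1.30e-04). Sesn1, a sestrin that restrains TORC1, averaged 16.3 ± 1.07 FPKM in si14-3-3ζ cells, against 7.24 ± 1.32 in siCon cells at 48 h (adjusted p = 8.17e-07 by limma).

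Among 20 selective receptors outside the set, 8 were higher and 3 lower at 48 h (40% and 15%, beside 23.3% and 22.8% of all loci). Fam134a, a relative of an endoplasmic reticulum receptor, averaged 50.7 ± 3.63 FPKM in si14-3-3ζ cells, against 32.9 ± 2.11 in siCon cells at 48 h (limma adjusted p = 1.20e-06). Bnip3, a mitophagy receptor, was lower at 24 h, at 93.7 ± 14.4 FPKM in si14-3-3ζ cells, against 175 ± 25.4 in siCon cells (limma adjusted p = 8.93e-06). It was also lower at 0 h, at 80.6 ± 11.6 FPKM in si14-3-3ζ cells, against 112 ± 11.0 in siCon cells (limma adjusted p = 0.00746). At 48 h Bnip3 was not called (limma adjusted p = 0.0511). Of 20 genes for fusion with the lysosome, 8 were higher and 3 lower at 48 h. Lamp1, a lysosomal membrane protein, averaged 447 ± 8.13 FPKM in si14-3-3ζ cells, against 316 ± 17.0 in siCon cells at 48 h (adjusted p = 8.23e-07 by limma), and 895 ± 26.7 FPKM in si14-3-3ζ, against 942 ± 21.9 in siCon cells, at 0 h, which was not called. Vps41, a subunit of the HOPS tether, averaged 40.0 ± 2.08 FPKM in si14-3-3ζ cells, against 26.7 ± 1.56 in siCon cells at 48 h (adjusted p = 9.35e-07 by limma).

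Of 28 membrane, lipid and PI3K accessory genes, 11 were higher and 4 lower at 48 h. Trp53inp1, a p53 target whose protein binds LC3, averaged 54.0 ± 5.42 FPKM in si14-3-3ζ cells, against 15.1 ± 6.11 in siCon cells at 48 h, a log2 difference of 1.85 (limma adjusted p = 6.69e-07). Snx18, a sorting nexin that remodels membrane, averaged 33.9 ± 4.46 FPKM in si14-3-3ζ cells, against 18.2 ± 0.855 in siCon cells (adjusted p = 5.15e-07 by limma). Of 17 transcription factors outside the set, 6 were higher and 5 lower at 48 h, or 35.3% and 29.4%, beside 23.3% and 22.8% of all loci. Foxo3, known as an activator of autophagy genes in muscle, averaged 27.0 ± 0.618 FPKM in si14-3-3ζ cells, against 13.1 ± 2.19 in siCon cells at 48 h (1.00, limma adjusted p = 1.64e-08). Xbp1, a factor of the unfolded protein response, averaged 36.9 ± 9.86 FPKM in si14-3-3ζ cells, against 95.7 ± 12.1 in siCon cells at 48 h (-1.38, limma adjusted p = 2.96e-07).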

How the data were processed

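RNA of 24 libraries of 3T3-L1 cells (6 groups of 4) was sequenced by the authors from an unstranded kit, and FPKM per locus were made by the authors with TopHat2 2.0.11 and Cufflinks 2.2.0 on mouse build NCBIM37. The deposited FPKM were used as they stand, and 0 value columns lacked a sample. No read counts were used, so depth per library is unknown and no counting interval could be given. No source used here says how the 9262 loci had been selected. Library sums ran from 474548 to 642146 FPKM over these loci.

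The 9251 loci that reached 1 FPKM in 4 or more libraries were fitted with limma 3.58.1 (R 4.3.3) on log2(FPKM + 1), with 6 group means and eBayes with a mean trend. The 9 contrasts were adjusted by Benjamini-Hochberg over all tested loci, with a threshold of 0.05. The other work used Python 3.11.15, pandas 2.3.3, numpy 2.4.6 and matplotlib 3.10.9. The fit was tested on simulated data. Alternatives were a pseudocount of 0.1, no filter, median-ratio and quantile scaling, no trend, a replicate block, a fit of only the groups compared, and leaving out each library.

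Samples were grouped by their labels. As a check of pairing, deviations of same-numbered libraries from their group means were correlated. Every pair was over 0.1 in 4 comparisons, and the numbers were taken as pairs there: knockdown at 24 h, with correlations of 0.101 to 0.443, 24 h of induction with si14-3-3ζ (0.135 to 0.546) or siCon (0.198 to 0.506), and 48 h of induction with siCon (0.179 to 0.502). The lowest pair elsewhere lay between 0.016 and 0.084. Calls, standard errors and p-values come from the fit without a block, also in the 4 paired comparisons, unless the block is named.

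Values per library are given for the LC3 and GABARAP loci, for the 6 called members of smallest adjusted p in each knockdown comparison and each difference of responses, and for 4 in each 48 h induction. Of the other pathway lists, up to 2 genes each are named, those of smallest adjusted p in any knockdown comparison. Other members are given by means, and Ywhaz as a check of labels. Members and lists were chosen with earlier results of these data known. Gene positions are from GENCODE on NCBIM37, and sequences from RefSeq on GRCm38.p6, where 27 of 30 members had a promoter.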

Additional observations from a re-analysis of the deposited data

Results flagged for a closer look

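In 10 of 180 groups of 4 libraries, 1 library stood apart from the other 3, with a gap to the nearest of them, as a share of the group's range, above the 95% critical value of Dixon's test for 4 values, which chance gives in about 1 in 20 groups. Among si14-3-3ζ libraries, Sqstm1 was low in replicate 1 at 48 h (135 FPKM, against 158 to 162 in the others, a gap of 0.842 of the range), and Ulk1 was low in replicate 3 at 48 h (22.6, against 25.1 to 25.4, gap 0.901). Wipi2 was high in replicate 3 at 48 h (40.2, against 38.1 to 38.3, gap 0.897). At 24 h Mir21/Vmp1 was low in replicate 3 (126, against 150.1 to 153, gap 0.884), Wipi1 high in replicate 2 (34.3, against 30.7 to 31.2, gap 0.869) and Tfeb low in replicate 1 (1.32, against 1.82 to 1.86, gap 0.909).

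Among siCon libraries, Atg16l1 was high in replicate 3 at 0 h (15.7 FPKM, against 13.3 to 13.5, gap 0.940) and Tfeb high in replicate 3 at 24 h (3.15, against 1.20 to 1.51, gap 0.840). At 48 h Mir21/Vmp1 was low in replicate 3 (157, against 178 to 179, gap 0.925) and Tecpr1 high in replicate 3 (8.97, against 6.20 to 6.56, gap 0.870).

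The response to 48 h of induction differed between si14-3-3ζ and siCon cells by an interaction contrast in limma for 7 members. The difference on the log2 scale was 0.70 for Ulk2 (adjusted p = 4.91e-04), 0.66 for Wipi1 (adjusted p = 0.00792), 0.61 for Map1lc3a (adjusted p = 0.0442), 0.47 for Gabarapl1 (adjusted p = 0.0114), 0.41 for Atg7 (adjusted p = 0.0363), 0.40 for Mir21/Vmp1 (adjusted p = 0.0284) and 0.39 for Sqstm1 (adjusted p = 0.019).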

How the results depend on the processing

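Of 120 calls of members over the 9 comparisons, 95 held under all 31 alternatives, and no called member changed sign. Of 441 values for the members named by rule, 420 kept direction and side of the threshold, 11 lost the call and 10 gained one. The count at 24 h after knockdown was 11, with 7 in a fit of only the groups compared and 6 to 13 when 1 library was left out. For responses to 24 h of induction, 0 differences were called, with 2 under the replicate block (Atg10 and Atg7) and 0 to 1 without 1 library. Over all 9251 tested loci this block called 202 positive and 202 negative. For responses to 48 h, 7 were called, with 11 under the replicate block (Atg10, Atg13 and Nbr1 added as positive and Atg4d as negative, at -0.55, adjusted p = 0.0364 by limma) and 4 to 9 without 1 library. Here the block called 1354 of the 9251 tested loci positive and 1445 negative, against 804 and 855 without it. After knockdown the block added Ctdnep1/Gabarap and Atg4d at 0 h and Map1lc3a at 48 h, where the numbers were not taken as pairs. Over all loci it called 1295 higher and 1375 lower at 0 h, with 2568 higher and 2599 lower at 48 h. In 88 of 120 comparisons a library correlated best with the library of its own number among the 4 of another group. These comparisons cover all pairs of groups, also those whose numbers were not taken as pairs. Calls gained in the paired comparisons stand beside their results, and the block ended no call of a member. The cause of these shifts was not tested. Unknown depth limits the reading of genes near 1 FPKM.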
